A study of Homo sapiens with 6 samples.

Results

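The sialomucins described here are 7 cell-surface proteins chosen by gene symbol, CD34, PODXL, PODXL2, EMCN, CD164, SPN and SELPLG, and all 7 were found among the 29436 gene symbols of the count table. Sialomucins carry a long extracellular stretch rich in serine and threonine to which dense, sialic acid-capped O-glycans are attached. Depending on how those glycans are finished, they either bind selectins, the adhesion receptors of endothelium, platelets and leukocytes, or keep membranes apart through their bulk and charge. On endothelium they mark the luminal surface, and CD34 is the standard surface marker by which endothelial cells and early blood progenitors are isolated.

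The libraries came from hemogenic endothelial cells, the endothelium that gives rise to blood, differentiated on AGM-S3 stroma from H1, a long-established line of human embryonic stem cells. The inducing medium held either no addition (untreated, 3 libraries) or alpha lipoic acid, an antioxidant, at 100 µg/ml (3 libraries). In both groups, cells that were CD34+, KDR+, CD144+ and CD43- were sorted on day 8, and polyA cDNA was amplified from 1000 cells per library. CD34 and SPN, the gene for CD43, therefore encode proteins of the sort gate itself. The submitters set out to find the mechanism by which lipoic acid promotes blood progenitors, and the comparison asks how the sorted endothelial cells differ in their transcripts. The labels do not say whether the replicates came from separate cultures, so p values reflect only how these libraries scatter, and that scatter may be technical.

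Total counts ran from 30041494 to 41351951 per library. Over 99% of the nonzero counts were even numbers in all lipoic acid libraries and in untreated replicate 1, against 52.0% in untreated replicates 2 and 3. All 17 endothelial markers were tested, and 11 were called lower and 2 higher with lipoic acid, by the rule given below. Of all tested genes, 23.3% were called lower and 24.2% higher. Of the 12 blood and myeloid markers, PTPRC, SPI1 and SPN had no count in any library. But 7 others, LAPTM5 and RAC2 among them, had enough counts to be tested.

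The mucin character of these genes can be read from their coding sequences, taken from GENCODE v29 on GRCh38. Over 19509 coding genes, the median share of codons for serine or threonine was 12.8%. That share was 29.9% in EMCN, 28.9% in CD164, 28.3% in PODXL, 28.0% in SPN, 24.9% in CD34 and 21.8% in SELPLG, each above that of at least 98.7% of coding genes. PODXL2, whose extracellular part also holds acidic stretches, had 9.9% serine and 5.1% threonine codons, together above the share of 77.3% of coding genes. The 20 codons of each coding sequence richest in serine and threonine are shown for the 4 members with the most counts, to display the sites open to O-glycans, with the serine and threonine codons in capitals.
CD34: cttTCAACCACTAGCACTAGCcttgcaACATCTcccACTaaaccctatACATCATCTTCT
PODXL: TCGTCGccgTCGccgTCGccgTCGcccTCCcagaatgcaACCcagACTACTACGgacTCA
EMCN: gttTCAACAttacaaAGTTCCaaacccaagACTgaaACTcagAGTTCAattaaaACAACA
CD164: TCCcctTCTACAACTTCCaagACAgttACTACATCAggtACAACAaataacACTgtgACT
These windows hold 13 such codons in CD34 (codons 146 to 165), 11 in PODXL (22 to 41), 10 in EMCN (116 to 135) and 13 in CD164 (131 to 150). A window with 13 or more occurs in 2.03% of coding genes, and a window with 10 or more in 13.25%.

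CD34, PODXL and PODXL2 form a family of related proteins whose tails end in a motif that binds PDZ adaptor proteins such as the NHERF scaffolds. The last 39 coding bases and the stop codon are shown 5′ to 3′ for the family and for EMCN as a contrast, with the final 4 sense codons in capitals.
CD34: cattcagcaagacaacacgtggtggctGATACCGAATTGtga
PODXL: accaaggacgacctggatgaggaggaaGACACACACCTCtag
PODXL2: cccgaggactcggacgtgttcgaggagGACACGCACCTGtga
EMCN: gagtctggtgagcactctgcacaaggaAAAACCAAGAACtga
Over the 12 capital bases, PODXL and PODXL2 shared 10, CD34 and PODXL2 shared 7, and CD34 and PODXL shared 6. CD34 and EMCN shared 5, as did PODXL and EMCN, PODXL2 and CD164, and SPN and SELPLG. No pair outside the family shared more than these 5. Over all 39 bases PODXL and PODXL2 shared 23, CD34 shared 14 with each of them and 13 with EMCN, and PODXL and SPN shared 17. Over the 12 capital bases each pair within the family thus shared more than any other pair of members. For CD34 and PODXL the margin was narrow, at 6 against 5. Over the 39 bases only PODXL and PODXL2 stood apart as a pair, and CD34 was not separated with its relatives from the other members. Gene counts do not separate transcripts, so the known shorter CD34 form, which lacks most of this tail, was counted together with the full-length form.

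With lipoic acid, CD34 fell 1.78-fold and PODXL 1.31-fold, while no change was called for EMCN, CD164 and SELPLG. Of the 7 members 5 had enough counts to be tested, 2 fell and 0 rose. Calls are edgeR quasi-likelihood results with a Benjamini-Hochberg adjusted p under 0.05 over all 13780 tested genes, of which 47.4% were called, 23.3% lower and 24.2% higher. A call was thus common among all genes, and the 2 of 5 members called lower are read against that. The median log2 fold change of the 5 tested members was -0.17, against -0.0081 over all tested genes. Levels are given in CPM, counts scaled to a common library total, on library sizes adjusted by the trimmed mean of M values (TMM), and folds are fitted by edgeR.

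CD34 (chromosome 1, 207880972 to 207911402, minus strand, GRCh38), the sialomucin of endothelium and blood progenitors, had 1431, 1498 and 1424 CPM in the untreated libraries, given here and below in the order of replicates 1 to 3. Its levels in the lipoic acid libraries were 808, 825 and 807 CPM. Every lipoic acid library lay well below every untreated one, and the libraries of a group lay within a few percent of each other, with a coefficient of variation of 2.81% in the untreated and 1.26% in the lipoic acid group. The fitted log2 fold change of CD34 was -0.84 ± 0.05 (standard error, n = 3 per group, edgeR adjusted p = 1.13e-06), and the level with lipoic acid was 0.561 of the untreated one (95% interval 0.522 to 0.601). Only 9.43% of tested genes had a lower log2 fold change. Restricted to the 4 even-count libraries, with untreated replicate 1 as the lone control whose spread is taken to equal that of the lipoic acid libraries, CD34 had a log2 fold change of -0.81 (edgeR adjusted p = 2.04e-07). The lower CD34 level was measured in cells that had all passed a gate for CD34 protein, whose amount per cell was not measured. In these bulk libraries, fewer cells with the transcript and less transcript per cell cannot be told apart.

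PODXL (chromosome 7, 131500262 to 131558217, minus strand) encodes podocalyxin, the anti-adhesive sialomucin first known from kidney podocytes and also found on endothelium and pluripotent stem cells. Its levels were 1054, 1101 and 1118 CPM in the untreated and 813, 835 and 843 CPM in the lipoic acid libraries. The groups did not overlap for PODXL, but the distance between them was smaller than for CD34. The log2 fold change was -0.39 ± 0.05 (n = 3 per group, edgeR adjusted p = 0.000131), and the lipoic acid level was 0.761 of the untreated one (95% interval 0.708 to 0.818). Of all tested genes, 22.4% had a lower log2 fold change than PODXL. Restricted to the 4 even-count libraries, the PODXL value was -0.34 (edgeR adjusted p = 0.000206).

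PODXL2 (chromosome 3, 127629181 to 127672809, plus strand) encodes endoglycan, the third protein of the CD34 family. It was nearly absent, with 1 count in untreated replicate 2 and 0 in the other untreated libraries, and with 12, 0 and 14 counts in lipoic acid replicates 1 to 3. With even counts halved these came to 1 and 13 counts over the groups, a ratio of 17.6 with a 95% counting interval of 2.64 to 746. All 13 counts of the lipoic acid group came from replicates 1 and 3, and PODXL2 was too low to be tested.

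**Figure D1:**
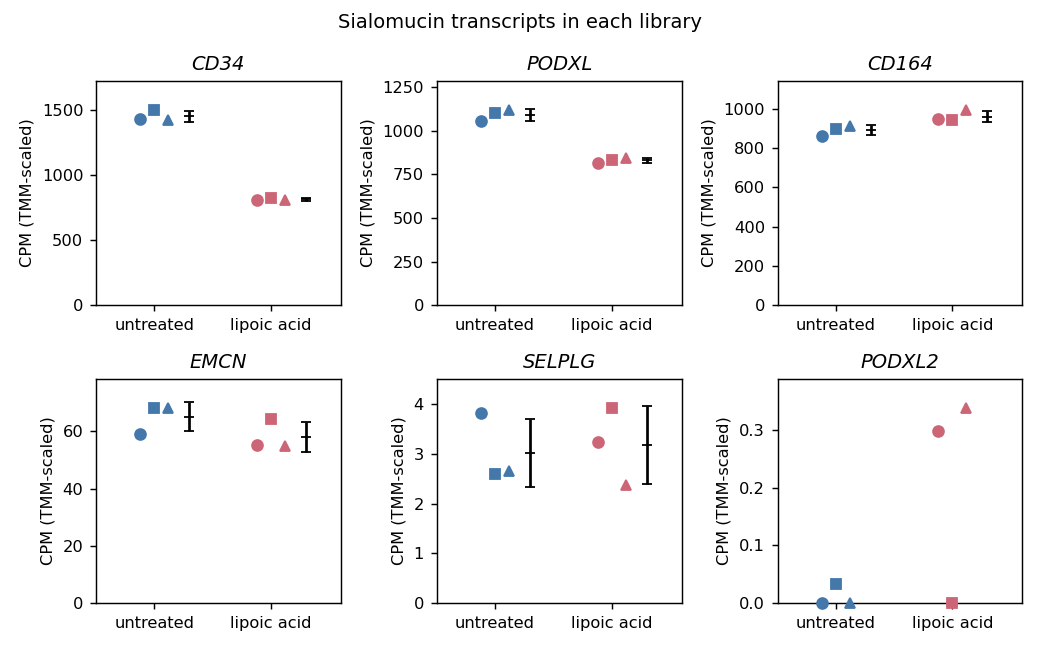
Levels of 6 sialomucins in CPM on TMM-scaled library sizes (vertical axes, linear from 0) in the 3 untreated and 3 lipoic acid libraries; circles, squares and triangles are replicates 1, 2 and 3, and bars are the mean and SD (not drawn for PODXL2). CD34 and PODXL lie lower in every lipoic acid library, CD164 lies slightly higher (941 to 993 against 863 to 914 CPM), and the groups overlap for EMCN, SELPLG and PODXL2.

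EMCN (chromosome 4, 100395341 to 100880126, minus strand) encodes endomucin, an endothelial sialomucin known mainly from veins and capillaries. It had 59.2, 68.0 and 68.2 CPM in the untreated and 55.2, 64.2 and 54.8 CPM in the lipoic acid libraries. The groups overlapped, since lipoic acid replicate 2 lay above untreated replicate 1. The lipoic acid level of EMCN was 0.891 of the untreated one (95% interval 0.779 to 1.02, edgeR adjusted p = 0.139), so that a fall as large as that of CD34 lay outside its interval. EMCN was called lower in 2 of 18 other settings, in which the log2 value was -0.34 after removal of a trend with GC and length (edgeR adjusted p = 0.0244) and -0.22 with limma voom and quality weights (adjusted p = 0.0285). In the 4 libraries of even counts it was -0.029 (edgeR adjusted p = 0.852).

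CD164 (chromosome 6, 109366514 to 109382812, minus strand) encodes endolyn, a widely expressed sialomucin of endosomes, lysosomes and the cell surface that acts in adhesion of blood progenitors. Its levels were 863, 896 and 914 CPM in the untreated and 948, 941 and 993 CPM in the lipoic acid libraries. The groups did not overlap, as was the case for 59.1% of all tested genes, and the difference was small. The lipoic acid level of CD164 was 1.08 of the untreated one (95% interval 1.00 to 1.16), which did not pass (edgeR adjusted p = 0.0875). The direction of CD164 was not stable, with a log2 value of -0.082 after removal of the GC and length trend (edgeR adjusted p = 0.376) and 0.16 in the 4 libraries of even counts (edgeR adjusted p = 0.0304).

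SELPLG and SPN are the 2 members known best from leukocytes. SELPLG (chromosome 12, 108622277 to 108633959, minus strand) encodes PSGL-1, the main leukocyte ligand of P-selectin, and had 3.81, 2.59 and 2.66 CPM in the untreated and 3.24, 3.92 and 2.37 CPM in the lipoic acid libraries. These ranges overlapped almost fully. The lipoic acid level of SELPLG was 1.05 of the untreated one, with a wide 95% interval of 0.680 to 1.61 (edgeR adjusted p = 0.860). SPN (chromosome 16, 29662979 to 29670876, plus strand), which encodes CD43, the leukocyte sialomucin that the gate selected against, had 0 counts in all 6 libraries. A limit of 3 counts over a group, with even counts halved, allows SPN up to 0.0393 CPM without and 0.0530 CPM with lipoic acid, for counting error only.

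The exons of these genes are largely free of other genes in GENCODE v29. Overlap with another gene was 0.2% of exonic bases for CD164, on the other strand, and 0.5% for SPN, on the same strand. The other 5 had none.

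Levels can be set side by side between genes only per length. Per kb of merged exons, untreated cells held 159 ± 4.82 CPM of PODXL, 157 ± 4.43 of CD34, 124 ± 3.54 of CD164, 12.4 ± 0.975 of EMCN and 1.21 ± 0.275 of SELPLG (SD, n = 3). PODXL and CD34 did not differ beyond their spread there. With lipoic acid the order per kb was CD164 at 133 ± 3.92, PODXL at 121 ± 2.30, CD34 at 88.2 ± 1.11, EMCN at 11.1 ± 1.01 and SELPLG at 1.27 ± 0.313 CPM. CD34 thus moved from level with PODXL to below both PODXL and CD164. The order of the first 3 depends on the length used, because the annotated coding transcripts run from 2538 to 8246 bases for CD34 and from 2011 to 2105 for PODXL. Per kb of the longest annotated transcript of any kind, the untreated levels were close, at 179.5 CPM for CD164, 177 for PODXL and 176 for CD34. Per kb of the longest coding transcript, a length chosen after seeing the data, untreated cells held 518 CPM of PODXL, 265 of CD164 and 176 of CD34. Those with lipoic acid held 394, 286 and 98.6 CPM. EMCN and SELPLG stayed below these 3 genes with each of the 3 lengths.

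**Figure D2:**
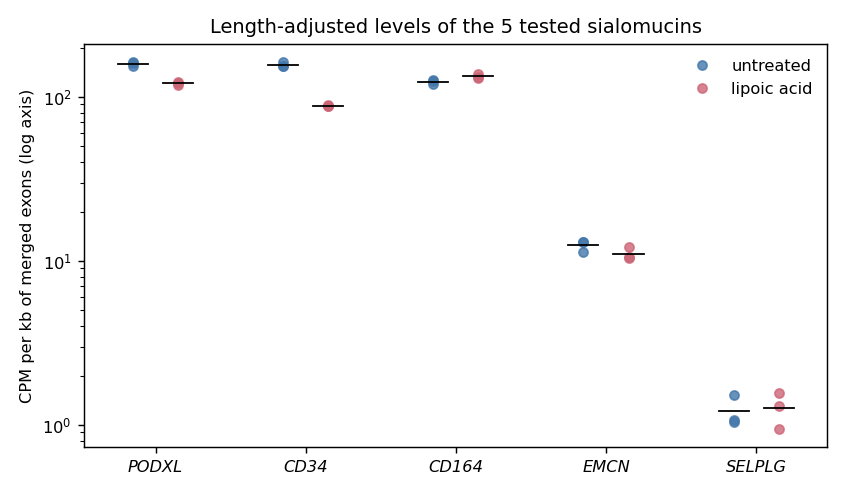
Levels of the 5 tested sialomucins in CPM per kb of merged exons (vertical log axis) for each untreated (blue) and lipoic acid (red) library, with group means as black lines. CD34 lies at 157 CPM per kb beside PODXL at 159 in untreated cells and at 88.2, below PODXL and CD164, with lipoic acid.

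The balance of counts among the 7 members shifted away from CD34. CD34 gave 42.0%, 42.0% and 40.4% of the counts of the 7 members in the untreated libraries and 30.8%, 30.9% and 29.9% of those in the lipoic acid libraries. The share of PODXL was 31.2% ± 0.466 in the untreated and 31.1% ± 0.187 in the lipoic acid group. CD164 took 25.4% ± 0.415 and 36.0% ± 0.757, the reverse of the CD34 shift. A share falls when other shares rise, so these values describe composition and not levels.

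A ratio of 2 genes within a library does not depend on how libraries are scaled, and CD34 was compared with each of the other 4 tested members in this way. The log2 ratio of CD34 to PODXL counts was 0.44, 0.44 and 0.35 in the untreated libraries and -0.0074, -0.016 and -0.064 in the lipoic acid libraries. CD34 counts exceeded PODXL counts in each untreated library and lay slightly below them in each lipoic acid library. The ratio of CD34 to PODXL was 1.36-fold lower with lipoic acid, that to EMCN 1.59-fold, that to SELPLG 1.86-fold and that to CD164 1.92-fold lower. In each of the 4 pairs the groups did not overlap, but all 4 ratios hold CD34 and so are not separate results. In CPM the groups did not overlap for 59.1% of all tested genes, and that share was not computed for ratios. The exact two-sided permutation p was 0.1 for every pair (adjusted over the 4 pairs, 0.1), the smallest that 3 libraries against 3 can give.

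**Figure D3:**
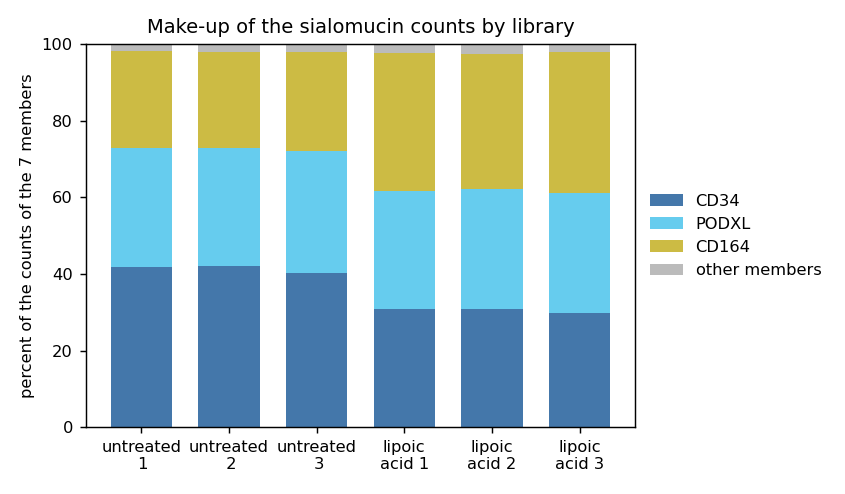
Share of the summed counts of the 7 sialomucins (vertical axis, percent) taken by CD34, PODXL, CD164 and the other members in each library. CD34 takes 40.4% to 42.0% in the untreated and 29.9% to 30.9% in the lipoic acid libraries, and the PODXL band keeps about the same height.

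Among the other transcripts of the gate, KDR, whose product binds the growth factor VEGF, rose 1.17-fold (edgeR adjusted p = 0.00409) and CDH5, which encodes CD144, fell 1.55-fold (edgeR adjusted p = 0.000344). Removal of the GC and length trend ended the KDR call (edgeR adjusted p = 0.181). Set among the 17 endothelial markers, 4 had a lower log2 fold change than CD34 and 7 a lower one than PODXL. Markers of 3 other cell types also moved, and their counts stand beside 24.2% of all tested genes called higher and 23.3% called lower. All 8 tested markers of endoderm and liver rose, their summed level lying at 28.2 to 40.4 CPM untreated and 148 to 222 CPM with lipoic acid. Of 7 tested epithelial markers 5 rose and 1 fell (297 to 329 and 462 to 531 CPM), and of 4 tested megakaryocytic markers 4 rose (6.82 to 7.32 and 28.3 to 31.7 CPM). SELP, described below as a selectin, is 1 of these 4 and held most of that sum, with mean levels of 5.25 and 21.3 CPM. FOXA2, PF4, CDH1 and ESRP1 had untreated means of 0.082, 0.415, 0.011 and 0.195 CPM and were tested only because of their lipoic acid levels. Such genes could not be called lower, so the counts of rises in these 3 lists were partly set by which genes were tested. ITGA2B and PLEK, with untreated means of 0.660 and 0.722 CPM, were also tested only because of their lipoic acid levels. Of the 4 megakaryocytic rises, only SELP had enough counts in the untreated libraries to be tested on those alone. PPBP was at 0 throughout, and so was GP1BB, but 100% of the exonic bases of GP1BB also belong to other gene models of its strand, so its 0 may come from how reads were assigned. Summed endothelial markers lay at 16283 to 16459 CPM untreated and 13491 to 14115 CPM with lipoic acid. The part of these markers in the CD34 and PODXL results was not tested.

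Of 7 tested blood and myeloid markers 0 rose and 3 fell, their sum lying at 405 to 443 CPM untreated and 333 to 365 CPM with lipoic acid. LAPTM5 held most of that sum, with mean levels of 290 CPM untreated and 244 CPM with lipoic acid. RAC2 had 76.5 and 54.7 CPM, and LCP1, which was not called, had 24.3 and 26.7 CPM. Of 10 mesenchymal markers 1 rose and 5 fell (1925 to 2557 and 1477 to 2026 CPM). Of 5 tested pluripotency markers, which matter here because stem cells express PODXL, 3 rose and 1 fell (81.4 to 85.9 and 93.5 to 96.3 CPM), with POU5F1 at 0 in all libraries. USP44, 1 of the 3, had an untreated mean of 0.251 CPM and likewise could not be called lower. None of the 10 erythroid markers was tested, and they summed to 0.123 to 0.665 and 0.338 to 0.823 CPM. These counts, too, stand beside 24.2% of all tested genes called higher and 23.3% called lower.

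Selectins are the receptors for finished sialomucin glycans, and the 2 described here rose. SELP, which encodes the P-selectin of platelets and endothelium, had 5.29, 5.22 and 5.25 CPM in the untreated and 20.7, 20.9 and 22.3 CPM in the lipoic acid libraries, a 4.05-fold rise (edgeR adjusted p = 1.52e-06). SELE, the endothelial E-selectin, had 37.0, 44.4 and 37.3 CPM in the untreated and 87.9, 61.3 and 88.3 CPM in the lipoic acid libraries, a log2 fold change of 1.00 (edgeR adjusted p = 0.000282). Lipoic acid replicate 2 was the lowest of its group for SELE and still above every untreated library.

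Partners of the sialomucin tails had 1 rise and 1 fall among 6 tested, beside 24.2% and 23.3% of all tested genes. Ezrin, radixin and moesin link such tails to actin, directly or through the NHERF scaffolds, and CRKL is an adaptor that binds the CD34 tail. The gene that rose was CRKL (1.29-fold, 140 ± 7.02 to 181 ± 9.65 CPM, edgeR adjusted p = 0.00120). SLC9A3R2, the NHERF2 scaffold, fell 1.86-fold from 6.30 ± 1.20 to 3.39 ± 0.472 CPM (edgeR adjusted p = 0.00749). SLC9A3R1, the NHERF1 scaffold, lay at 34.0 ± 0.0996 and 34.5 ± 0.201 CPM, and EZR, RDX and MSN did not pass either.

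Enzymes that build the glycans split in both directions. Over the 3 glycosylation lists 43 of 59 genes were tested, and 14 rose, 12 fell and 17 did not pass, a median log2 fold change of -0.13. Both shares, 14 and 12 of 43, stand beside 24.2% and 23.3% of all tested genes. GCNT3 and ST6GALNAC2, with untreated means of 0.021 and 0.274 CPM, were tested only because of their lipoic acid levels and could not be called lower. ST6GAL2, with 0 counts in the lipoic acid group, was tested only because of its untreated levels and could not be called higher. Both counts were thus partly set by which genes were tested. Of the 19 tested enzymes that start and extend O-glycans, 5 rose and 5 fell. The falls included GALNT18 (2.58-fold, 381 ± 22.3 to 148 ± 10.4 CPM), GALNT14 (1.52-fold) and GALNT7 (1.33-fold), all members of the family that adds the first sugar to serine or threonine. GALNT10 of the same family rose 1.82-fold from 8.21 ± 1.40 to 14.9 ± 1.40 CPM. The highest edgeR adjusted p of these 4 genes was 0.00156.

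Genes for making and attaching sialic acid had 8 rises and 4 falls among 16 tested, beside 24.2% and 23.3% of all tested genes. The 8 include ST6GALNAC2 and the 4 include ST6GAL2, under the limits given above. Their median log2 fold change as a list was 0.11, against -0.0081 over all tested genes. NANS and NANP, which carry out consecutive steps of sialic acid synthesis, rose 1.64-fold (30.3 ± 1.95 to 49.7 ± 1.22 CPM) and 1.88-fold (20.5 ± 1.93 to 38.6 ± 3.84 CPM). ST6GALNAC3, a sialyltransferase, rose 1.62-fold from 76.1 ± 3.89 to 124 ± 10.7 CPM. SLC35A1, which carries activated sialic acid into the Golgi, fell 1.77-fold from 34.3 ± 2.05 to 19.3 ± 2.29 CPM, and 55.5% of its exonic bases also belong to a gene model of the same strand, AL049697.1. The highest edgeR adjusted p of these 4 genes was 0.000172. ST6GAL2, singled out after its values were seen, had 1.85, 1.36 and 1.26 CPM in the untreated libraries and 0 counts with lipoic acid, at least 26.9-fold lower against a limit of 3 counts over the group.

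The genes that give selectin ligands their fucose and sulfate had 1 rise and 3 falls among 8 tested. Of all tested genes, 24.2% were called higher and 23.3% lower. CHST1, a sulfotransferase, fell 4.27-fold from 18.5 ± 1.08 to 4.32 ± 0.937 CPM (edgeR adjusted p = 1.22e-05). The 2 synthases of the sulfate donor moved apart, with PAPSS1 1.78-fold lower (434 ± 11.1 to 244 ± 7.26 CPM) and PAPSS2 1.24-fold higher (219 ± 2.34 to 272 ± 10.3 CPM). CHST2, another sulfotransferase, fell 1.33-fold (edgeR adjusted p = 0.0102) but was not called without lipoic acid replicate 1 (edgeR adjusted p = 0.0519). The fucosyltransferase genes FUT3, FUT5, FUT6, FUT7 and FUT9, named after their values were seen, had no count in any library. Other gene models of the same strand cover 82.5% of the exonic bases of FUT5 and 27.6% of those of FUT7, so these zeros may come from how reads were assigned. FUT4 lay at 16.2 ± 2.60 and 17.7 ± 1.80 CPM (edgeR adjusted p = 0.461).

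**Figure D4:**
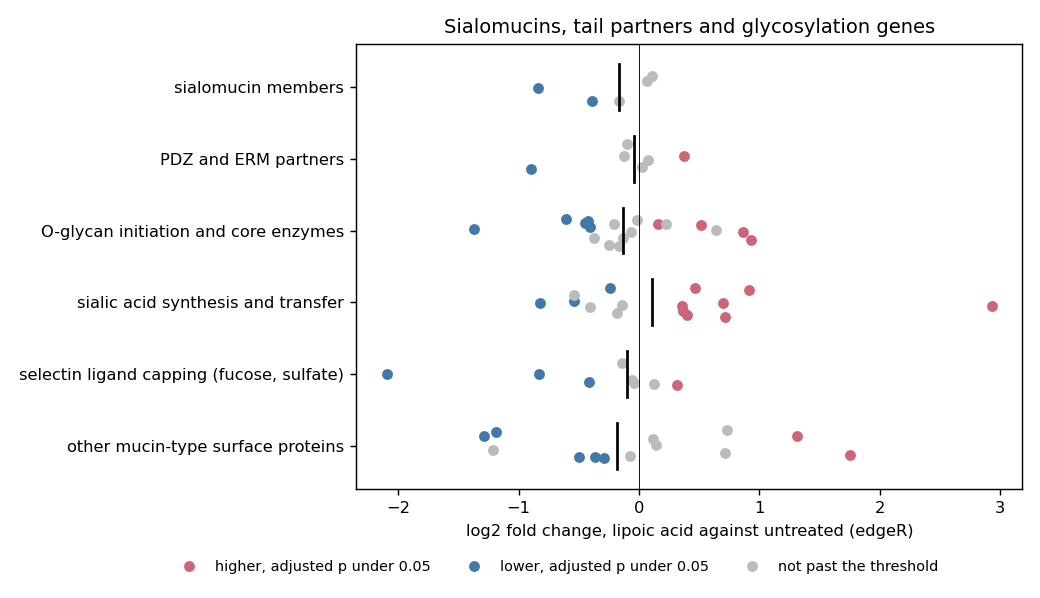
Fitted log2 fold changes (horizontal axis, lipoic acid against untreated, edgeR) of the tested sialomucins, tail partners, glycosylation genes and other mucin-type proteins, with list medians as black bars; GCNT3, ST6GAL2 and MADCAM1, which have at most 2 counts over a group with even counts halved, are left out as points. CD34 at -0.84 and PODXL at -0.39 lie on the lower side, and the glycosylation lists spread to both.

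Other surface proteins with mucin-type stretches had 6 falls and 2 rises among 14 tested, beside 23.3% and 24.2% of all tested genes. MADCAM1, among the 6, had a mean of 0.037 CPM with lipoic acid. It was tested only because of its untreated levels and could not be called higher. CD24, a small heavily glycosylated anchored protein, fell 2.44-fold from 964 ± 80.2 to 396 ± 24.9 CPM, although its near-identical copies elsewhere in the genome make its count uncertain. CD248, a mucin-like protein known mainly from stromal cells, fell 2.28-fold from 116 ± 10.1 to 50.8 ± 7.44 CPM. CD44, a hyaluronan receptor, fell 1.29-fold from 1286 ± 19.5 to 1001 ± 13.7 CPM. PROM1, which encodes CD133, another surface marker of blood progenitors, rose 2.48-fold from 24.4 ± 5.51 to 60.7 ± 7.19 CPM. The highest edgeR adjusted p of these 4 genes was 0.000141.

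For each member with at least 50 CPM, the genes whose profile over the 6 libraries was most alike were found by the root mean square distance between mean-centred log2 levels, among 4082 other genes of at least 50 CPM. Nearest to CD34 were OAZ2 and SEMA6A (0.041 each), SNN (0.042), EFNB2 (0.043) and SERPINB9 (0.046). PPP1CB (0.019), SPAST (0.025) and ARPC2 (0.026) lay nearest to PODXL, and FAM192A (0.012), SERINC1 (0.016) and WDFY1 (0.020) nearest to CD164. EMCN had HPGD (0.025), NUP88 (0.037) and GABPB1 (0.041) as its nearest genes. On the same scale CD34 lay 0.223 from PODXL and 0.474 from CD164. EMCN and PODXL, at 0.141, were the closest pair of members.

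**Figure D5:**
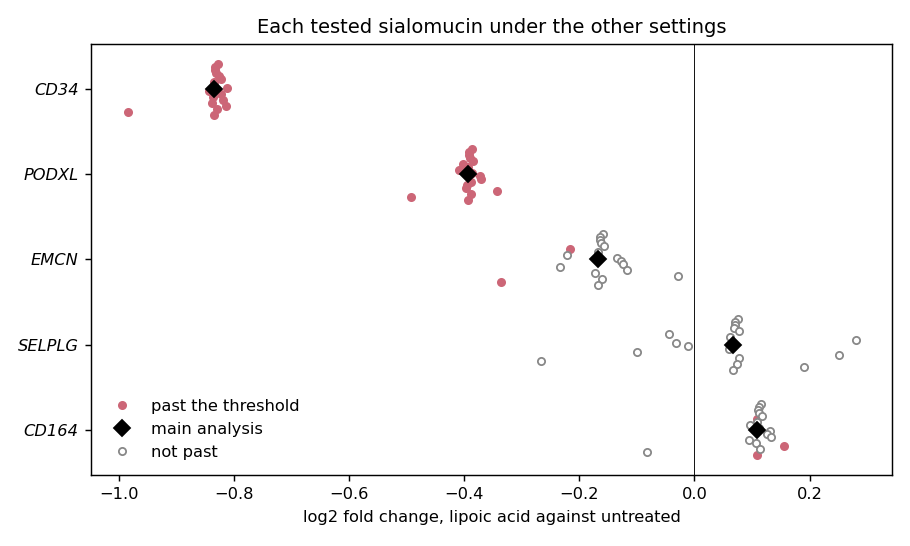
Log2 fold change (horizontal axis, lipoic acid against untreated) of each tested sialomucin in the main analysis (black diamond) and in 18 other settings (filled where past the threshold, open where not). CD34 (-0.98 to -0.81) and PODXL (-0.49 to -0.34) stay below 0 and past the threshold in all 18, while SELPLG (-0.27 to 0.28) and CD164 (-0.082 to 0.16) lie on both sides of 0.

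The settings that called EMCN or CD164 had their own background. With limma voom 27.4% of tested genes were called higher and 26.9% lower, and after removal of the GC and length trend 27.2% were called lower. In the 4 even-count libraries 19.5% were called higher, and at an adjusted p under 0.1 the share was 28%.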

How the data were processed

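The authors deposited raw counts per gene symbol for 6 libraries. Per the submitters' processing notes, HISAT2, featureCounts, DESeq2 and hg38 were used, while their versions and options, the annotation and the use of strand are not given in the sources used here. Counts were analysed as deposited in R 4.3.3 with edgeR 4.0.16 (filterByExpr by group, TMM, quasi-likelihood F test, group as the only term), and limma 3.58.1, DESeq2 1.42.0 and mgcv 1.9.3 served other settings. Standard errors are the log2 fold change divided by the root of F. The edgeR step was tested on simulated data. Positions, lengths and coding sequences came from GENCODE v29 (GRCh38), in which 99.02% of symbols had a single gene. PCR reads without molecular identifiers are not independent molecules, so intervals and limits from counts cover counting error only. Named genes were all 7 members, the gate genes and up to 4 called genes of lowest p per pathway list, and the nearest profiles. GALNT17 was matched under neither of its symbols, and both NHERF genes by their older ones. The members and lists were chosen with earlier results of these data known. A further gene of these lists is not reported here.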

Additional observations from a re-analysis of the deposited data

How the results depend on the processing

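CD34 and PODXL kept their direction and call in all 18 other settings. With limma voom and quality weights EMCN (-0.22, adjusted p = 0.0285) and CD164 (0.11, adjusted p = 0.0383) were called, which made 1 member higher, and SELPLG was -0.045. In the 4 libraries of even counts CD164 (0.16) was called, again 1 member higher, and SELPLG was -0.27. After removal of the GC and length trend EMCN was called (-0.34) and CD164 turned to -0.082. At an adjusted p under 0.1, CD164 (0.11) was called, 1 member higher. The cause was not tested. Leaving out each library in turn moved SELPLG between -0.10 and 0.28 and changed no member's call. PODXL2 entered only 3 other settings and was not called (adjusted p 0.0794 to 0.177). Same-numbered libraries of the 2 groups correlated at 0.0852 to 0.0996, and each was highest with its own number. With the replicate block CD34 was -0.83 and PODXL -0.39, no member's call changed, and 6557 genes were called against 6534. Of 396 other values for KDR, CDH5 and the called pathway genes of lowest p, 394 kept their direction and call. The genes of nearest profile and ST6GAL2, FUT4 and SLC9A3R1 were not tested in other settings. Low counts limit SELPLG, PODXL2 and SPN.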
